A study of Mus musculus with 10 samples.

Results

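Stab1, Stab2, Lyve1, Fcgr2b, Mrc1, Clec4g, Clec1a and Gpr182 are surface receptors of the liver sinusoidal endothelial cell. They were taken by gene symbol, are 8 of the 56748 genes in the deposited count table, and were measured in poly-A RNA of primary mouse hepatocyte cultures. Mttp_KO_CM denotes wild-type hepatocytes kept overnight in medium of adipocytes from A-Mttp-/- mice (5 libraries), and Mttp_flox_CM the same cells in medium of adipocytes from Mttpf/f mice (5 libraries). The product of Mttp is the microsomal triglyceride transfer protein, which lipidates apolipoprotein B during lipoprotein assembly.

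The adipocytes of both groups were differentiated in culture from stromal vascular cells of the inguinal depot, with a cocktail that held rosiglitazone, dexamethasone, insulin, indomethacin and IBMX. Both groups of medium came from adipocytes starved overnight. The fat donors were male, had eaten an obesogenic diet for 6 months, and are given as 3 mice. The driver of the deletion, like the strain, sex and age of the hepatocyte donors, was not given in the sources used here. Deletion was in the adipocytes that made the medium and not in the cells sequenced, so these libraries hold no check of it. In each group 1 library has a column number that no label gives. It was placed by its group letter and is called the unnumbered library, and the other libraries carry the numbers 1 to 4. Summed counts per library were 14283517 to 17178131 in Mttp_KO_CM and 14199798 to 15950530 in Mttp_flox_CM.

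Sinusoidal endothelial cells line the blood channels of the liver. They clear waste macromolecules from the blood by endocytosis through clathrin-coated vesicles, and they hold much of the body's capacity to remove hyaluronan, collagen fragments, modified lipoproteins and small immune complexes. The stabilins and the mannose receptor carry most of this uptake, and Fcgr2b binds the immune complexes. A hepatocyte preparation can keep some of these cells after perfusion of the liver. Several of the receptors are shared with other cells, among them Mrc1 and Stab1 with macrophages, Lyve1 with lymphatic endothelium and Fcgr2b with B cells.

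Promoter sequences are shown for the receptor with the smallest change of the 8 (Stab1), the one with the largest (Clec4g), and the other one that holds a motif match (Mrc1). RefSeq (GRCm38.p6) gave 300 bases, from 250 before the gene's start to 50 after it, for 5 of the 8 genes: Stab1, Stab2, Fcgr2b, Mrc1 and Clec4g. Lyve1, Clec1a and Gpr182 were not matched. Capitals mark the ETS motif CAGGAAG or its reverse complement CTTCCTG, the binding form of a family of endothelial transcription factors. The sequences are at chr14:31168592-31168891 (minus strand), chr2:14229164-14229463 (plus strand) and chr8:3720602-3720901 (minus strand).
Stab1: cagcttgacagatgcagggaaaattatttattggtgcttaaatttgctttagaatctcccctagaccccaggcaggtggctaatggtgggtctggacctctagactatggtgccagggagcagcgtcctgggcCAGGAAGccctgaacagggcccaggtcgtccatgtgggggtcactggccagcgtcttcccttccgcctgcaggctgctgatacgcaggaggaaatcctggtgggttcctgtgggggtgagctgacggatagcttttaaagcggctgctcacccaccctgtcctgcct
Mrc1: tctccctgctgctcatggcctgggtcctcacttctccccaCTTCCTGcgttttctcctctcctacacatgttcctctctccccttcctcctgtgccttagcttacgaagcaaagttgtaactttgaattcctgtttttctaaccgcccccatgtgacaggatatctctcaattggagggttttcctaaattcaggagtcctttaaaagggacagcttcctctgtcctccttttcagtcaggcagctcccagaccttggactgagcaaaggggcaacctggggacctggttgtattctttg
Clec4g: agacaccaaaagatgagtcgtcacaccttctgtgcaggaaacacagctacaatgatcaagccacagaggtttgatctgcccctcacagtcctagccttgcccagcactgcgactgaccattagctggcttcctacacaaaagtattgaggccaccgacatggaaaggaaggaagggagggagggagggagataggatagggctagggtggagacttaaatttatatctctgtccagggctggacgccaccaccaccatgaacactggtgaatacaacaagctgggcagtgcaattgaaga

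The ETS letters begin at position -117 from the start in Stab1 and, on the other strand, at position -210 in Mrc1. They were in neither the Clec4g, the Stab2 nor the Fcgr2b window. Of 32851 mouse promoters of the same length, 13.3% hold them on either strand. The GATA motif GATAAG (7.44% of promoters), the AP-1 motif TGACTCA (5.2%) and the DR1 form of the PPAR element, 2 copies of AGGTCA spaced by 1 base (0.0396%), had no match in any of the 5 windows. Each motif was searched on both strands, and none of the matches overlapped another. The Stab1 and Mrc1 matches are descriptions of the letters and not of a binding site.

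All 8 receptor genes were lower in cultures given knockout medium, by between 0.80 and 2.16 on the log2 scale, and for each of them every Mttp_KO_CM library lay below every Mttp_flox_CM library. The fall was smallest for the stabilins and Lyve1, larger for Fcgr2b and Mrc1, and largest for Gpr182, Clec1a and Clec4g. Counts were tested with edgeR's quasi-likelihood test over 14183 genes, with a Benjamini-Hochberg adjusted p under 0.05 as the threshold. At that threshold 36.4% of all genes tested changed, 18.1% were lower in Mttp_KO_CM and 18.2% were higher, and 25.7% had groups that did not overlap. As counts, 2571 genes were lower and 2585 higher, and scaling by library size alone gave 3217 lower and 1982 higher. The median log2 change was -1.18 over the 8 receptor genes and 0.0012 over all genes tested. In bulk RNA, fewer cells of a type and less RNA per cell cannot be told apart. The labels give 3 fat donor mice and do not tie libraries to them, so with 5 libraries in a group some must share a donor or pooled medium. They also do not say whether a group's libraries are separate cultures, so all p-values here cover only the spread among the libraries at hand, which may be technical, and can be too small for a comparison of donors.

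**Figure D1:**
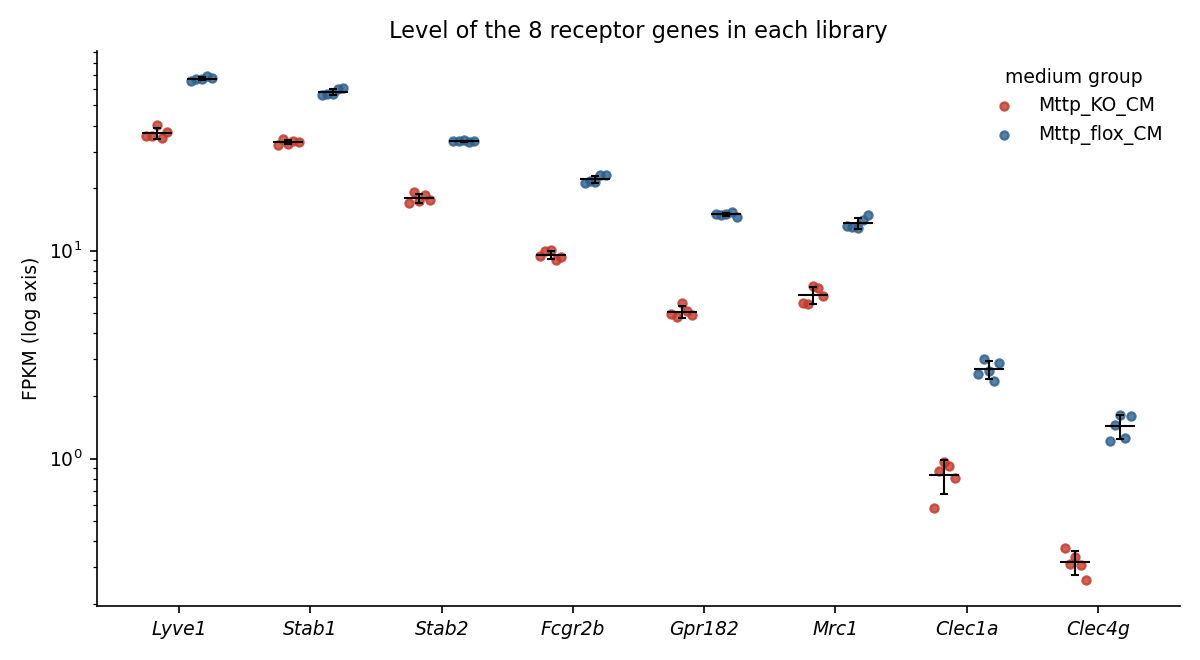
The vertical log axis gives the deposited FPKM (count over gene length and over 1 constant per library) of each of the 8 receptor genes. There is 1 point per library, 5 for Mttp_KO_CM on the left and 5 for Mttp_flox_CM on the right of each gene. Long bars are means and whiskers 1 SD; for every gene the Mttp_KO_CM points lie below the Mttp_flox_CM points.

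Stab1 and Stab2 encode the stabilins, large receptors that take up modified lipoproteins and matrix fragments, with Stab2 as the main receptor for hyaluronan clearance. Levels are given as CPM, the count scaled to a common library size with TMM factors, in the order of replicates 1, 2, 3, 4 and the unnumbered library. Stab1 had 335, 356, 337, 349 and 343 CPM in Mttp_KO_CM, against 577, 586, 589, 621 and 622 CPM in Mttp_flox_CM. Replicate 2 was the highest Mttp_KO_CM library, and replicate 4 and the unnumbered library were the highest of Mttp_flox_CM, with no overlap between the groups. The log2 change was -0.80 (SE 0.0281, edgeR adjusted p = 2.5e-17), which left 57.4% of the level in Mttp_flox_CM. Of all genes tested, 2.77% had a log2 change at or below that of Stab1.

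Stab2 had 149, 168, 152, 162 and 155 CPM in Mttp_KO_CM, against 295, 296, 299, 292 and 297 CPM in Mttp_flox_CM. The libraries spread more widely in Mttp_KO_CM, with an SD of 7.54 CPM around 157 CPM, than in Mttp_flox_CM, with an SD of 2.44 CPM around 296 CPM. Stab2 fell by 0.91 (log2, SE 0.0311, edgeR adjusted p = 1.5e-17), to 53.1% of the level in Mttp_flox_CM. Within each library the ratio of Stab1 to Stab2 was higher by 0.11 on the log2 scale in Mttp_KO_CM (1.13 ± 0.0328 in Mttp_KO_CM, 1.02 ± 0.0555 in Mttp_flox_CM, SD, n = 5 each; exact permutation p = 0.0079, adjusted p = 0.0106 over 28 pairs). The values did not overlap, so Stab2 fell by slightly more than Stab1.

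Lyve1 encodes a small hyaluronan receptor with a link domain. It had 104, 105, 119, 103 and 109 CPM in Mttp_KO_CM, against 193, 196, 197, 203 and 199 CPM in Mttp_flox_CM. Replicate 3 was the highest Mttp_KO_CM library and still lay well under the lowest Mttp_flox_CM library. The log2 change was -0.87 (SE 0.0361, edgeR adjusted p = 7.7e-16), with 54.7% of the Mttp_flox_CM level remaining. Lyve1 lay between the stabilins in the size of its fall, and its ratio to either was not shown to differ: the ratio of Stab1 to Lyve1 shifted by 0.07 (exact permutation test, adjusted p = 0.231) and that of Stab2 to Lyve1 by -0.04 (exact permutation test, adjusted p = 0.532).

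Fcgr2b encodes the inhibitory IgG Fc receptor, which on sinusoidal endothelium takes up immune complexes. It had 54.6, 58.1, 58.4, 52.1 and 54.5 CPM in Mttp_KO_CM, against 123, 126, 125, 134 and 134 CPM in Mttp_flox_CM. The highest Mttp_KO_CM library was under the lowest Mttp_flox_CM library by more than the whole range of either group. Fcgr2b fell by 1.21 (log2, SE 0.0402, edgeR adjusted p = 8.8e-18), to 43.3%. The close paralog Fcgr3 can share reads with Fcgr2b, and the treatment of such reads was not given in the sources used here. Fcgr3 averaged 11.7 ± 1.66 CPM in Mttp_KO_CM and 15.4 ± 1.45 CPM in Mttp_flox_CM (SD, n = 5 each), and its log2 change was -0.39 (SE 0.0937, edgeR adjusted p = 0.00195).

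Mrc1 encodes the mannose receptor, a C-type lectin that takes up glycoproteins with terminal mannose, lysosomal enzymes and collagen fragments. It had 36.0, 35.4, 43.5, 42.2 and 38.8 CPM in Mttp_KO_CM, against 83.9, 83.1, 82.0, 89.3 and 95.3 CPM in Mttp_flox_CM. Replicates 3 and 4 were the highest of Mttp_KO_CM, the unnumbered library was the highest of Mttp_flox_CM, and the groups stayed apart. The log2 change was -1.14 (SE 0.0553, edgeR adjusted p = 1.5e-14), with 45.3% of the Mttp_flox_CM level remaining. Mrc1 and Fcgr2b fell by amounts that were not shown to differ (shift of the log2 ratio of Fcgr2b to Mrc1 -0.06, exact permutation test, adjusted p = 0.469).

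Gpr182 encodes an atypical chemokine receptor, a G protein-coupled receptor that removes chemokines without G protein signalling and marks sinusoidal endothelium. It had 19.7, 19.1, 22.3, 20.3 and 19.5 CPM in Mttp_KO_CM, against 59.7, 59.3, 59.5, 60.7 and 57.8 CPM in Mttp_flox_CM. Replicate 3 was the highest of Mttp_KO_CM, the SD was 1.28 CPM in Mttp_KO_CM and 1.02 CPM in Mttp_flox_CM, and the groups did not overlap. The fall of 1.56 on the log2 scale (SE 0.0475) had the smallest adjusted p of the 8 genes (edgeR adjusted p = 1.6e-18) and left 34.0% of the Mttp_flox_CM level. Of all genes tested, 0.212% had a log2 change at or below it.

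Clec1a encodes a C-type lectin-like receptor of endothelial and myeloid cells that recognises fungal melanin. It had 46, 65, 85, 75 and 59 counts in Mttp_KO_CM, which are 3.02, 4.55, 5.02, 4.77 and 4.20 CPM, against 190, 235, 221, 197 and 220 counts in Mttp_flox_CM, which are 13.2, 15.7, 13.7, 12.2 and 14.97 CPM. Replicate 1 was the lowest Mttp_KO_CM library and replicate 3 the highest, and the highest remained far under the Mttp_flox_CM libraries. Clec1a fell by 1.69 (log2, SE 0.118, edgeR adjusted p = 2.0e-11), to 31.0%. On the log2(FPKM + 1) scale, which understates changes of low genes, the change was -1.01.

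Clec4g encodes LSECtin, a C-type lectin of liver and lymph node sinusoidal endothelium that binds glycans ending in N-acetylglucosamine and is known to restrain T cells. It had the fewest reads, with 14, 11, 14, 12 and 9 counts in Mttp_KO_CM, against 43, 54, 65, 50 and 58 counts in Mttp_flox_CM. Summed over libraries, 60 counts in Mttp_KO_CM (exact Poisson 95% interval 45.8 to 77.2) stood against 270 in Mttp_flox_CM (239 to 304), with intervals that cover counting error only. The mean was 0.784 ± 0.101 CPM in Mttp_KO_CM and 3.53 ± 0.473 CPM in Mttp_flox_CM (SD, n = 5 each). Clec4g had the largest fall of the 8 genes, by 2.16 (log2, SE 0.202, edgeR adjusted p = 4.8e-09), to 22.4%, and 0.0212% of all genes tested had a log2 change at or below it. On the log2(FPKM + 1) scale the change was -0.88, and on the log2(FPKM + 0.1) scale -1.87.

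Compared per gene length, the order of the levels was nearly the same in both groups. In Mttp_KO_CM, Lyve1 had the highest level at a mean of 36.8 FPKM, followed by Stab1 at 33.3, Stab2 at 17.9, Fcgr2b at 9.56, Mrc1 at 6.12, Gpr182 at 5.08, Clec1a at 0.829 and Clec4g at 0.317 FPKM. In Mttp_flox_CM, Lyve1 averaged 67.3 FPKM, Stab1 58.0, Stab2 33.6, Fcgr2b 22.1, Gpr182 14.96, Mrc1 13.55, Clec1a 2.68 and Clec4g 1.43 FPKM. Neighbours in each order had ranges that did not overlap, except Mrc1 and Gpr182, which changed places. Mrc1 was above Gpr182 in 5 of 5 Mttp_KO_CM libraries, and Gpr182 was above Mrc1 in 4 of 5 Mttp_flox_CM libraries. The log2 ratio of Mrc1 to Gpr182 counts was higher by 0.41 in Mttp_KO_CM (0.95 ± 0.0743 in Mttp_KO_CM, 0.54 ± 0.105 in Mttp_flox_CM, SD, n = 5 each; exact permutation p = 0.0079, adjusted p = 0.0106).

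The summed level of the 8 genes was 109.9 ± 2.99 FPKM in Mttp_KO_CM (105.8 to 114.1) and 213.7 ± 5.02 FPKM in Mttp_flox_CM (207.9 to 219.2; SD, n = 5 each). Lyve1 and Stab1 took a larger mean share of it in Mttp_KO_CM, and Gpr182, Fcgr2b and the small lectins a smaller one. Stab1 made up 30.3 ± 1.03% of the summed FPKM in Mttp_KO_CM and 27.1 ± 0.361% in Mttp_flox_CM, and Lyve1 33.5 ± 1.38% in Mttp_KO_CM and 31.5 ± 0.287% in Mttp_flox_CM. The share of Gpr182 was 4.62 ± 0.227% in Mttp_KO_CM and 7.0 ± 0.21% in Mttp_flox_CM, and that of Fcgr2b 8.69 ± 0.316% in Mttp_KO_CM and 10.3 ± 0.187% in Mttp_flox_CM. Clec4g contributed 0.289 ± 0.0408% in Mttp_KO_CM and 0.669 ± 0.0876% in Mttp_flox_CM. Among the genes tested, ranked by mean FPKM from the highest, Lyve1 stood at place 1343 in Mttp_KO_CM and 644 in Mttp_flox_CM, and Clec4g at place 13272 in Mttp_KO_CM and 10746 in Mttp_flox_CM.

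Ratios between the receptor genes within a library do not depend on how libraries are scaled, and they show whether the genes fell by different amounts. Of the 28 pairs, 23 had a log2 ratio that differed between the groups (exact 2-sided permutation test over 10 libraries, adjusted p under 0.05 over the 28 pairs; the smallest unadjusted p the design allows is 0.00794), and in 21 the groups did not overlap. The pairs share the same genes, so they are not independent of each other. How often pairs of other genes would pass was not tested. The genes are described here in 3 sets cut by the size of the fall itself, with no sharp borders. The shift of Clec4g to Gpr182 within a set (-0.57) was larger in size than that of Fcgr2b to Gpr182 between sets (0.35). Ratios among Stab1, Stab2 and Lyve1 shifted by at most 0.11, and of these only the shift of Stab1 to Stab2 passed. Mrc1 and Fcgr2b fell by more than the stabilins: the ratio of Stab1 to Mrc1 was higher by 0.35 in Mttp_KO_CM, and that of Stab1 to Fcgr2b by 0.41 (exact permutation test, adjusted p = 0.0106 for each).

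Gpr182, Clec1a and Clec4g fell by the most. The ratio of Stab1 to Gpr182 shifted by 0.76, to Clec1a by 0.90 and to Clec4g by 1.32 (exact permutation test, adjusted p = 0.0106 for each). Clec4g also fell by more than Gpr182 (shift of the Clec4g to Gpr182 ratio -0.57, exact permutation test, adjusted p = 0.0106). Clec1a was not shown to differ from Gpr182 (shift -0.14, exact permutation test, adjusted p = 0.393) or from Clec4g (Clec4g to Clec1a -0.42, exact permutation test, adjusted p = 0.0741). Without Mttp_KO_CM replicate 1, in which Clec1a was lowest, the Clec4g to Clec1a shift was -0.60 with an adjusted p of 0.0202 by the same exact permutation test.

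The weakest difference that passed was that of Stab2 to Mrc1, at 0.24 (exact permutation test, adjusted p = 0.0386). It no longer passed on leaving out any library other than Mttp_KO_CM replicate 3. The shifts were then 0.18 to 0.26, with adjusted p of 0.058 to 0.0773 by the exact permutation test. Without both unnumbered libraries the adjusted p was 0.139 by the same test. With fewer libraries the smallest p that an exact permutation test can give is larger. A call lost in this way therefore does not show that the shift depends on the library left out. Fcgr2b to Clec1a, at 0.49 (exact permutation test, adjusted p = 0.0202), did not pass without both unnumbered libraries (0.49, exact permutation test, adjusted p = 0.0727). The Stab1 to Lyve1 shift passed without Mttp_KO_CM replicate 3 (0.12, exact permutation test, adjusted p = 0.0193).

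**Figure D2:**
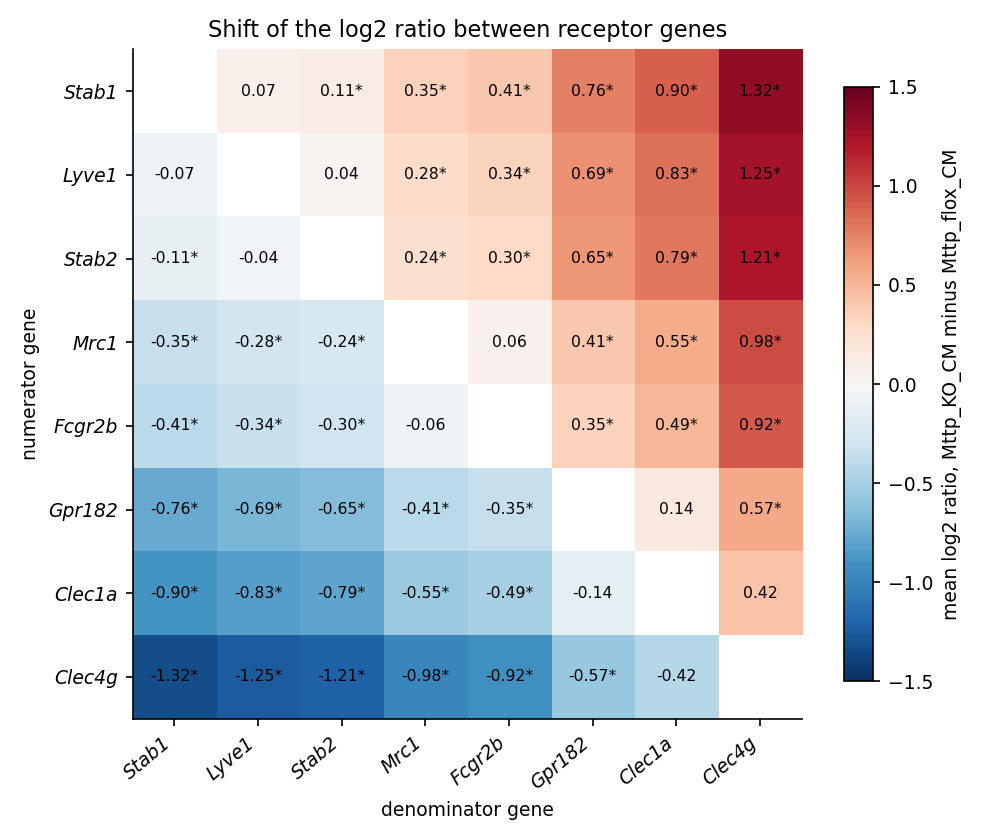
Each cell gives the shift of the mean log2 ratio of the row gene to the column gene, Mttp_KO_CM minus Mttp_flox_CM, over 5 libraries each, on a colour scale centred at 0; an asterisk marks an adjusted p under 0.05 (exact permutation test, 28 pairs). Cells near the diagonal are pale, and the largest shift is the 1.32 of Stab1 to Clec4g.

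The libraries of a group differed little in the set as a whole. Mttp_KO_CM replicate 3 was the highest of its group for 5 of the 8 genes and had the highest summed level (114.1 FPKM), and Mttp_KO_CM replicate 1 was the lowest for 3 and had the lowest (105.8 FPKM). Among Mttp_flox_CM libraries, replicate 1 was the lowest for 4 genes (207.9 FPKM) and the unnumbered library was above the group mean for 7 (219.2 FPKM). No library of either group lay apart from the others for the summed level by as much as the distance between the groups.

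Markers of the cell types that could carry these receptors were also lower in Mttp_KO_CM. The counts for this and every later gene list stand beside 18.1% of all genes tested that fell and 18.2% that rose. Of 15 pan-endothelial identity genes, 14 fell and 0 rose, with a median log2 change of -0.72, and their summed level was 1060 to 1110 CPM in Mttp_KO_CM and 1650 to 1760 CPM in Mttp_flox_CM. Eng, a TGF-beta co-receptor, had a log2 change of -1.13 (SE 0.031), Robo4, a guidance receptor of endothelium, of -1.10 (SE 0.0415), Ptprb, an endothelial phosphatase, of -0.99 (SE 0.0414), and Pecam1, the adhesion molecule CD31, of -0.61 (SE 0.0303; edgeR adjusted p of 2.1e-14 or less for each). Sox17, an arterial transcription factor, was the gene that did not pass (log2 change -0.18, edgeR adjusted p = 0.0548). The marker with the fewest counts, Vwf, the gene for von Willebrand factor, averaged 2.72 ± 0.226 CPM in Mttp_KO_CM and 5.46 ± 0.956 CPM in Mttp_flox_CM (SD, n = 5 each), so all 15 were detected in both groups. The part of these marker changes in the receptor changes was not tested.

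Other genes typical of the sinusoidal endothelial cell were mostly lower, by varied amounts. Of 14 such genes tested out of 15 listed, 11 fell and 0 rose (median log2 change -1.02), and they summed to 317 to 345 CPM in Mttp_KO_CM and 616 to 663 CPM in Mttp_flox_CM. Kdr, a VEGF receptor, averaged 44.8 ± 2.07 CPM in Mttp_KO_CM and 121 ± 5.49 CPM in Mttp_flox_CM (SD, n = 5 each; log2 change -1.44, edgeR adjusted p = 5.7e-19). Dnase1l3, a secreted nuclease, fell by 1.25, Flt4, the VEGF-C receptor, by 1.08 and Ntn4, a netrin, by 0.96 (log2; edgeR adjusted p of 3.7e-14 or less for each). The 3 that did not pass were Bmp6, a ligand that controls iron through hepcidin (log2 change 0.01), the Wnt ligand Wnt2 (-0.24) and Rspo3, which amplifies Wnt signals (-0.42). Cd4, which some of these cells carry, had too few counts to be tested.

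Macrophage markers, which share Mrc1 and Stab1, fell in 14 of 15 cases and rose in 0 (median log2 change -0.54), with sums of 497 to 561 CPM in Mttp_KO_CM and 712 to 804 CPM in Mttp_flox_CM. The complement gene C1qa had a log2 change of -0.82 (SE 0.0406) and Csf1r, the receptor of colony-stimulating factor, of -0.72 (SE 0.0524; edgeR adjusted p of 5.2e-11 or less for both). Stellate and fibroblast markers fell in 12 of 14 cases and rose in 0 (median -0.83, 248 to 262 CPM in Mttp_KO_CM and 342 to 362 CPM in Mttp_flox_CM), with Col1a1, a collagen chain, at -1.36 and Lrat, the retinol esterase of stellate cells, at -2.01. That sum is mostly Ecm1, at 61.7% of it in Mttp_flox_CM, which had a log2 change of -0.30. Des (-0.535) and Reln (-0.163) did not pass. Lymphatic endothelial markers fell in 2 of 6 cases and rose in 0. Those 2 were Flt4 and Itga9, while Prox1, the transcription factor that sets lymphatic identity and is also made by hepatocytes, had a log2 change of -0.06 (SE 0.037, edgeR adjusted p = 0.272).

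B cell markers, relevant to Fcgr2b, were near 0. None of 6 was tested, and they summed to 0.525 to 0.997 CPM in Mttp_KO_CM and 0.267 to 1.11 CPM in Mttp_flox_CM. Hepatocyte markers made up the bulk of the marker RNA, at 58500 to 60900 CPM in Mttp_KO_CM and 69800 to 73300 CPM in Mttp_flox_CM, and 11 of 15 fell and 2 rose (median log2 change -0.22). Alb, the gene for albumin, had a log2 change of -0.22 (SE 0.0224, edgeR adjusted p = 2.8e-08), and Asgr1, a subunit of the hepatocyte asialoglycoprotein receptor, of 0.29 (SE 0.0504, edgeR adjusted p = 7.1e-05). Some hepatocyte markers fell by more than Alb, with log2 changes of -0.97 for Tat, -0.67 for Serpina1a, -0.63 for Ahsg and -0.54 for Apoa1. Falls of this size were therefore not confined to markers of other cell types.

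**Figure D3:**
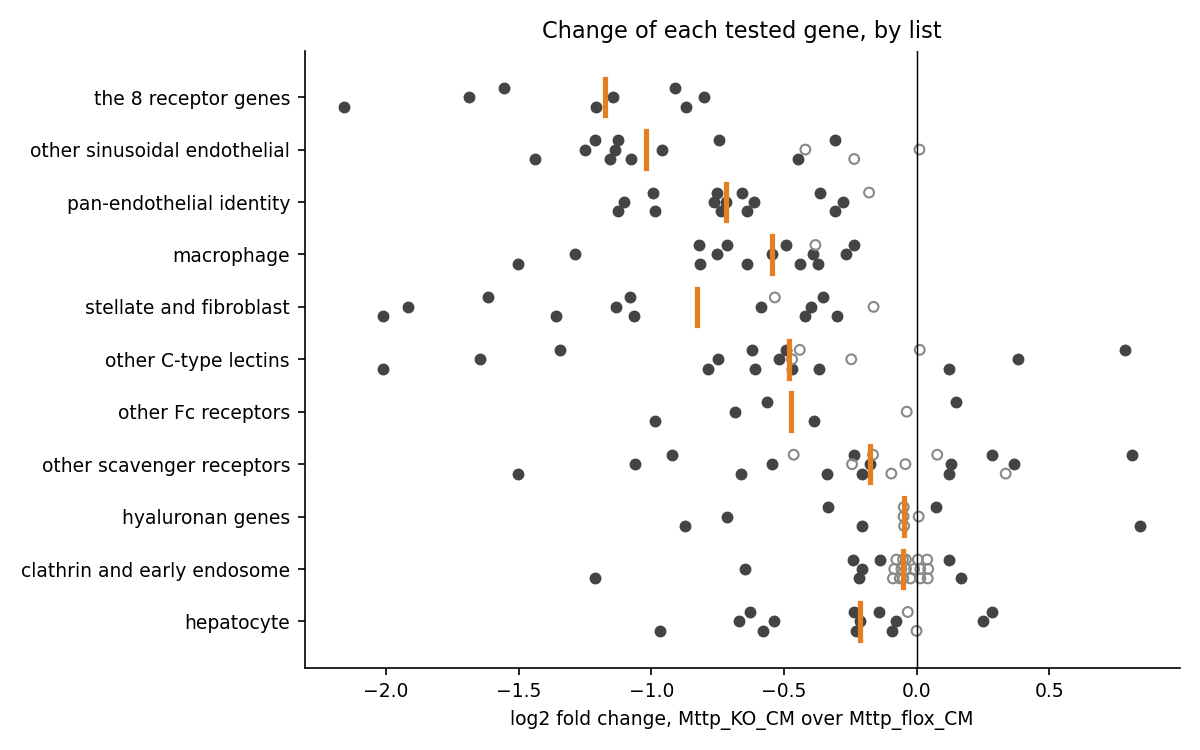
The horizontal axis gives the log2 change of each tested gene, Mttp_KO_CM over Mttp_flox_CM, by gene list; filled points passed an edgeR adjusted p under 0.05, open points did not, and the orange bar is the list's median. The 8 receptor genes at the top have a median of -1.18 and lie wholly below 0, the hyaluronan and clathrin lists have medians of -0.05, and the hepatocyte list has a median of -0.22.

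Each receptor gene also fell relative to the summed pan-endothelial markers of the same library. The shift of the log2 ratio to the pan-endothelial sum was -0.15 for Stab1, -0.22 for Lyve1, -0.26 for Stab2, -0.50 for Mrc1, -0.56 for Fcgr2b, -0.91 for Gpr182, -1.05 for Clec1a and -1.47 for Clec4g. For Stab1 the log2 ratio was -1.66 ± 0.0319 in Mttp_KO_CM and -1.51 ± 0.0146 in Mttp_flox_CM, and for Gpr182 it was -5.75 ± 0.0865 in Mttp_KO_CM and -4.84 ± 0.0549 in Mttp_flox_CM (SD, n = 5 each). Relative to the macrophage sum the shifts ran from -0.30 for Stab1 to -1.62 for Clec4g. All 16 ratios differed without overlap between the groups (exact permutation test, adjusted p = 0.0079 over 16 tests). The tests share the marker sums and the receptor genes, so they are not independent of each other. How often ratios of other genes to these sums would pass was not tested. The pan-endothelial sum is weighted towards its most abundant gene, Cdh5, at 21.4% of it in Mttp_flox_CM. Single markers such as Eng (-1.13) and Robo4 (-1.10) fell by more than Stab1, Stab2 and Lyve1 did. The macrophage sum is weighted towards Cd5l, at 24.5% of it in Mttp_flox_CM, which had a log2 change of -0.24. The macrophage markers C1qa (-0.82) and Vsig4 (-0.82) fell by about as much as Stab1 (-0.80), where the median of that list was -0.54. The other sinusoidal endothelial genes had a median log2 change of -1.02. Stab1 (-0.80), Lyve1 (-0.87) and Stab2 (-0.91) fell by less than that median, and Fcgr2b, Mrc1, Gpr182, Clec1a and Clec4g by more. Ratios of the receptor genes to the sum of those sinusoidal genes were not tested.

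**Figure D4:**
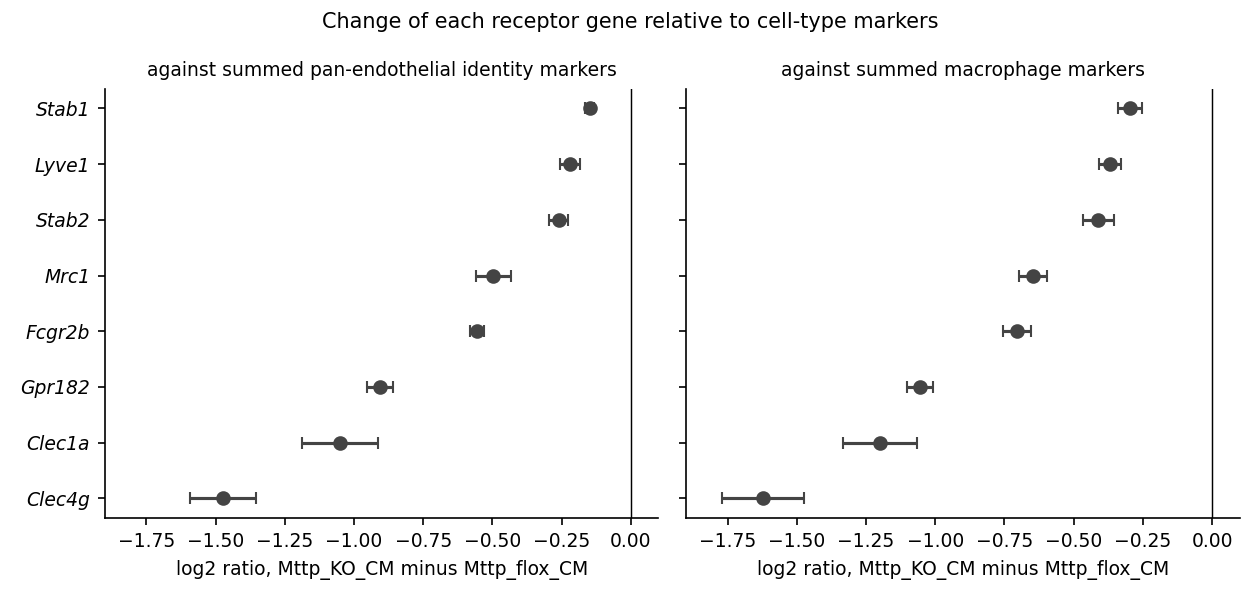
Points give the shift of the log2 ratio of each receptor gene to the summed CPM of pan-endothelial identity markers (left) or macrophage markers (right), Mttp_KO_CM minus Mttp_flox_CM, and whiskers the standard error of the difference of means over 5 libraries each. All points lie left of 0, from -0.15 for Stab1 to -1.47 for Clec4g on the left panel.

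Genes with related jobs outside the set moved in both directions. Of 21 other scavenger and endocytic receptors tested, 9 fell and 5 rose (median log2 change -0.18), where 18.1% and 18.2% of all genes tested did. The haemoglobin scavenger receptor Cd163 averaged 67.0 ± 2.47 CPM in Mttp_KO_CM and 140 ± 5.36 CPM in Mttp_flox_CM (SD, n = 5 each; log2 change -1.06, edgeR adjusted p = 2.5e-17), and the macrophage scavenger receptor Msr1 fell by 0.92 (SE 0.0664, edgeR adjusted p = 3.7e-11). The fatty acid and lipoprotein receptor Cd36 rose, with 946 ± 53.1 CPM in Mttp_KO_CM and 539 ± 24.6 CPM in Mttp_flox_CM (SD, n = 5 each; log2 change 0.81, edgeR adjusted p = 1.8e-15). Scarb2, a lysosomal membrane protein, rose by 0.37 (SE 0.03, edgeR adjusted p = 3.8e-10).

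Of 18 other C-type lectins tested, 11 fell and 3 rose (median log2 change -0.48), where 18.1% and 18.2% of all genes tested did. Clec14a, a lectin-like receptor of endothelium, averaged 4.46 ± 0.664 CPM in Mttp_KO_CM and 18.1 ± 1.39 CPM in Mttp_flox_CM (SD, n = 5 each), and its log2 change of -2.01 (SE 0.101, edgeR adjusted p = 3.2e-14) was nearest to that of Clec4g. The endothelial receptor Cd93 fell by 0.37, the Kupffer cell lectin Clec4f by 0.49 and the podoplanin receptor Clec1b by 0.62 (log2; edgeR adjusted p of 1.7e-09 or less for each). Clec4n and Clec4d, lectins of myeloid cells also called dectin-2 and MCL, rose, Clec4n by 0.79 (edgeR adjusted p = 5.4e-04) and Clec4d by 0.38 (edgeR adjusted p = 5.7e-04). Among 6 other Fc receptors tested, 4 fell and 1 rose: Fcgr1 fell by 0.99, Fcgr4 by 0.68 and the signalling chain Fcer1g by 0.57, while Fcgrt, the neonatal Fc receptor that recycles IgG and albumin, rose by 0.15 (edgeR adjusted p of 0.0027 or less for each).

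Genes that make or break down hyaluronan, the ligand of Stab2 and Lyve1, showed no common direction. Of 10 tested, 4 fell and 2 rose (median log2 change -0.05), where 18.1% and 18.2% of all genes tested did. Cemip2, a cell surface protein linked to hyaluronan breakdown, averaged 57.5 ± 3.78 CPM in Mttp_KO_CM and 105 ± 4.91 CPM in Mttp_flox_CM (SD, n = 5 each; log2 change -0.88, edgeR adjusted p = 4.9e-14). Hyal1, the lysosomal hyaluronidase, rose, with 12.9 ± 1.95 CPM in Mttp_KO_CM and 7.21 ± 0.477 CPM in Mttp_flox_CM (SD, n = 5 each; log2 change 0.84, edgeR adjusted p = 4.7e-07). The hyaluronan receptor Cd44 fell by 0.33 (edgeR adjusted p = 1.2e-06) and Hmmr by 0.71 (edgeR adjusted p = 0.00356).

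Stabilin ligands and their adaptor gave 2 falls and 2 rises among 6 tested, where 18.1% of all genes tested fell and 18.2% rose. Sparc, a matrix protein that Stab1 takes up, fell by 0.63 (SE 0.029) and Postn, periostin, by 0.65 (SE 0.108), while Gdf15, a stress cytokine cleared by the stabilins in mice, rose by 0.58 (SE 0.0467) and Chid1, a chitinase-like protein that binds Stab1, by 0.22 (SE 0.0429; edgeR adjusted p of 3.0e-04 or less for each). Of 8 atypical chemokine receptors and chemokines bound by Gpr182, 4 fell and 2 rose. Cxcl12 fell by 0.58 (SE 0.0462, edgeR adjusted p = 2.3e-10) and Ackr3, another receptor that scavenges this chemokine, by 1.10 (SE 0.18, edgeR adjusted p = 2.6e-05). Cxcl10, an interferon-induced chemokine, rose by 1.24 (SE 0.165, edgeR adjusted p = 1.5e-06) and varied widely, with 15.8 ± 4.51 CPM in Mttp_KO_CM and 6.64 ± 1.77 CPM in Mttp_flox_CM (SD, n = 5 each).

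The uptake machinery that these receptors use is made by hepatocytes as well. Of 25 genes of clathrin endocytosis and the early endosome, 6 fell and 2 rose (median log2 change -0.05), where 36.4% of all genes tested changed in either direction. Ehd3, an endosomal ATPase enriched in sinusoidal endothelium, had the largest change, with 10.9 ± 0.12 CPM in Mttp_KO_CM and 25.2 ± 1.86 CPM in Mttp_flox_CM (SD, n = 5 each; log2 change -1.21, edgeR adjusted p = 2.7e-13). The adaptor Dab2 fell by 0.65 (edgeR adjusted p = 1.6e-10) and epsin Epn2 by 0.24 (edgeR adjusted p = 1.5e-04). Rab11a, a regulator of recycling endosomes, rose by 0.17 (edgeR adjusted p = 3.3e-04) and the clathrin assembly protein Picalm by 0.12 (edgeR adjusted p = 0.00168).

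Among 11 transcription factors linked to sinusoidal endothelial identity, 5 fell and 1 rose (median log2 change -0.17). Maf averaged 43.7 ± 2.64 CPM in Mttp_KO_CM and 88.6 ± 5.97 CPM in Mttp_flox_CM (SD, n = 5 each; log2 change -1.02, edgeR adjusted p = 2.0e-14). Sox18 fell by 1.77 (SE 0.105) and Meis2 by 1.08 (SE 0.0792), while Klf4, a factor induced by flow in endothelium, rose by 1.21 (SE 0.0806; edgeR adjusted p of 5.6e-11 or less for each). Gata4, a master regulator of the sinusoidal type in mice that hepatocytes also express, had a log2 change of -0.07 (edgeR adjusted p = 0.366).

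The genes of the set lie on 7 chromosomes (GRCm39, coordinates of the deposited table). Stab1 (ENSMUSG00000042286) is at chr14:30860970-30890598, Stab2 at chr10:86677062-86843889, Lyve1 at chr7:110449814-110462446, Fcgr2b at chr1:170786186-170804116, Mrc1 at chr2:14234203-14336868, Clec4g at chr8:3757064-3770651, Clec1a at chr6:129401735-129428963 and Gpr182 at chr10:127583145-127587601, all on the minus strand except Mrc1. Stab1 overlaps Nt5dc2 on the other strand by 112 bases and Gpr182 overlaps Zbtb39 by 74 bases, and the strand setting was not given in the sources used here. Nt5dc2 rose by 0.37 (SE 0.0817, edgeR adjusted p = 7.6e-04) and Zbtb39 fell by 0.48 (SE 0.0461, edgeR adjusted p = 8.1e-09). Other transcripts that overlap Stab2, Fcgr2b, Mrc1 or Clec4g had at most 12 counts in any library.

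Of the 16 tested genes nearest to the receptor genes on either side, 6 fell, 2 rose and 8 did not pass. Over all genes tested, 18.1% fell and 18.2% rose. Nisch, beside Stab1, had a log2 change of -0.10 (edgeR adjusted p = 0.00481), Rnf141, beside Lyve1, of -0.05 (edgeR adjusted p = 0.29), Stam, beside Mrc1, of 0.21 (edgeR adjusted p = 4.6e-04) and Trappc5, beside Clec4g, of 0.05 (edgeR adjusted p = 0.595). Both tested neighbours of Clec1a fell, and it lies in a cluster of C-type lectin genes. The window within 120 kb of its start held 8 tested genes. Clec12a (-1.65), Clec9a (-1.35), Clec7a (-0.79) and Clec1b (-0.62) were lower there too (edgeR adjusted p of 2.1e-07 or less for each). These lectins are also counted among the other C-type lectins above, and a shared cause with Clec1a was not tested. Olr1 (-0.10), Gabarapl1 (0.02) and Gm44243 (0.05) did not pass (edgeR adjusted p of 0.749 or more for each). Clec9a ends 8 bases from Clec1a on the other strand, at 2.62 ± 0.364 CPM in Mttp_KO_CM and 6.69 ± 0.679 CPM in Mttp_flox_CM (SD, n = 5 each), and reads that run past the end of either could be counted in the other.

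**Figure D5:**
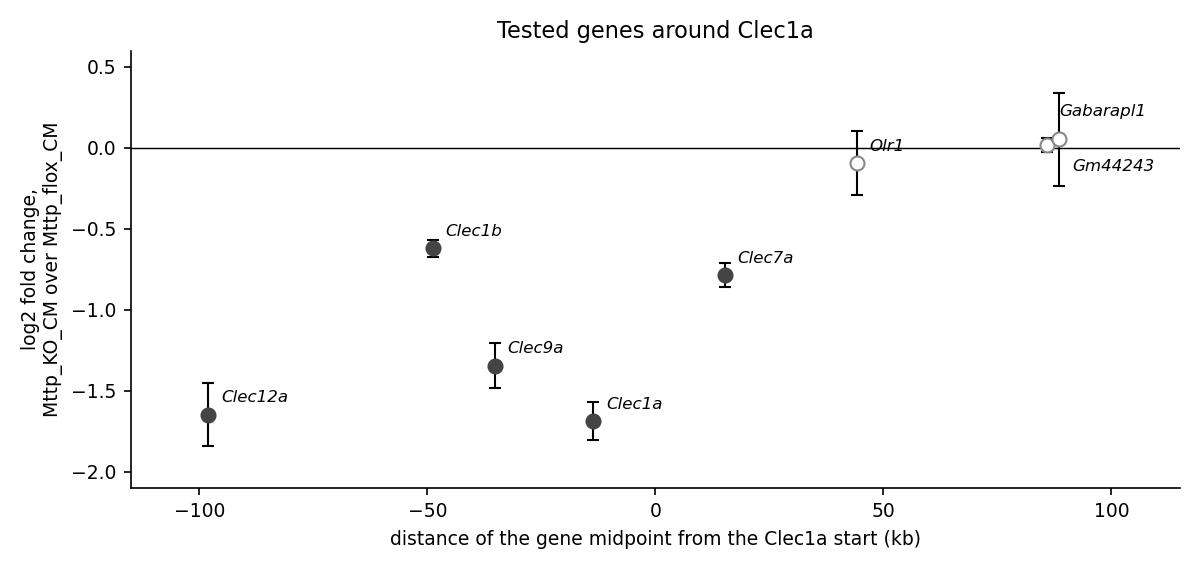
The vertical axis gives the log2 change, Mttp_KO_CM over Mttp_flox_CM, with its standard error, of the 8 genes tested within 120 kb of the start of Clec1a, and the horizontal axis the distance of each gene's midpoint from that start. The 5 C-type lectin genes Clec12a, Clec1b, Clec9a, Clec1a and Clec7a (filled, edgeR adjusted p under 0.05) lie below 0, and Olr1, Gabarapl1 and Gm44243 (open) lie near 0.

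Genes whose profile over the 10 libraries was most like each receptor gene's were ranked by the root-mean-square difference of centred log2 CPM, among 10265 genes with a mean of at least 5 CPM. Stab1 was nearest to Egfr, the epidermal growth factor receptor, at 0.0417, and to Hspg2, the basement membrane proteoglycan perlecan, at 0.0528, against a median of 0.417 over all candidates. Stab2 was nearest to Fgd5, an endothelial exchange factor, at 0.0481 and to Ptprb at 0.0562. Lyve1 was nearest to Vsig4, a complement receptor of Kupffer cells, at 0.0514 and to Fscn1, which bundles actin, at 0.0539. Fcgr2b was nearest to Eng at 0.0571 and to Galnt15, an enzyme of O-glycosylation, at 0.0652.

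The remaining receptor genes had looser neighbours. Mrc1 was nearest to Acnat2, an acyltransferase gene, at 0.0963 and to Ehd3 at 0.101. Gpr182 was nearest to Sult1a1, a sulfotransferase, at 0.111 and to Kdr at 0.12. Clec1a was nearest to Sox18 at 0.142 and to Abcc9, a subunit of a potassium channel, at 0.196. Clec4g was nearest to Clec14a at 0.208 and to Aqp1, a water channel, at 0.22, against a median of 1.08 over all candidates. Within the set, the nearest of the other receptor genes was Stab2 for Stab1 (0.0695), Mrc1 for Fcgr2b (0.109) and Gpr182 for both Clec1a (0.208) and Clec4g (0.334). With 10 libraries in 2 groups, any gene with a like fall is a near neighbour.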

How the data were processed

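Poly-A RNA of cultured hepatocytes was sequenced in 10 libraries, 5 per group. The authors deposited whole-number counts per gene, and FPKM values of the same libraries. HISAT2 2.0.5 and featureCounts 1.5.0-p3, with build GRCm39, are named per the submitters' processing notes. The FPKM equal count over gene length over 1 constant per library, and summed counts were 1.0049 to 1.0134 of the size that constant implies in Mttp_KO_CM and 0.9803 to 0.9838 in Mttp_flox_CM. Strand setting and multi-mapping treatment were not given in the sources used here.

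In R 4.3.3, edgeR 4.0.16 was run on the counts: filterByExpr (minimum count 10, minimum total 15) kept 14183 of 56748 genes (99.8% of counts), TMM factors were 0.982 to 0.9926 in Mttp_KO_CM and 1.011 to 1.0158 in Mttp_flox_CM, and glmQLFTest compared the groups with a prior count of 0.125. Benjamini-Hochberg adjustment ran over all genes tested. CPM are TMM-scaled, folds are Mttp_KO_CM over Mttp_flox_CM on the log2 scale, and a standard error (SE) is the log2 change over the root of its F statistic. Levels were compared between genes on the deposited FPKM. Log2 ratios between genes, with 0.5 added to each count, were tested by exact 2-sided permutation over libraries. The procedure was tested on simulated data.

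The receptor genes, the 15 other gene lists and the tests were chosen with earlier results of these data known. Named genes were the 8 receptor genes, up to 4 of each other list by smallest p, up to 2 that passed against a list's direction, 2 nearest profiles per receptor gene, and genes that overlap or neighbour one. Some genes on more than 1 list, such as Flt4 and Ehd3, count in each, and part of the genes taken are left unnamed. Sox17, Vwf, Bmp6, Wnt2, Rspo3, Gata4, Cd4, Cdh5, Cd5l, Ecm1, Des, Reln, Tat and the other genes around Clec1a were chosen after their values were seen. Alternatives were other scalings, filters, tests and units, a replicate block, leaving out each library and, chosen after seeing the data, both unnumbered libraries, or averaging log2 CPM over a marker list. Libraries of a group differed by more than counting noise, so each was counted as its own library; whether they share a culture or RNA was not tested.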

Additional observations from a re-analysis of the deposited data

How the results depend on the processing

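The call of all 8 receptor genes as lower, and of 0 as higher, held under each of 21 alternatives to the scaling, the low-count filter, the test, the unit and the libraries used, and all 168 single values kept their direction and passed. The log2 change ran from -0.84 to -0.78 for Stab1, -0.95 to -0.88 for Stab2, -0.91 to -0.85 for Lyve1, -1.25 to -1.13 for Fcgr2b, -1.19 to -1.03 for Mrc1 and -1.60 to -1.39 for Gpr182. It ran from -1.75 to -1.01 for Clec1a and from -2.22 to -0.88 for Clec4g, with the values nearest 0 on log2(FPKM + 1). Over all genes, 2307 to 3217 were lower and 1982 to 2586 higher. Scaling by library size alone gave 3217 lower and 1982 higher, against 2571 lower and 2585 higher with TMM, and moved the median log2 change of all genes by -0.04. The 16 ratios to marker sums passed in all 13 alternatives, and 21 to 24 of the 28 pairs passed. Of 544 single ratio values under the alternatives, 530 kept their direction and call, 11 no longer passed, 2 newly passed and 1 reversed: Stab2 to Lyve1 without Mttp_KO_CM replicate 3, at 0.005 (log2), in a range of -0.073 to 0.005 over libraries left out.

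Replicate numbers 1 to 4 are shared by the groups. Deviations from the group means correlated between same-numbered libraries at 0.0212, -0.009, -0.00446 and 0.0647, and 2 of 4 Mttp_KO_CM libraries were closest to the Mttp_flox_CM library of their own number, so the numbers were not taken to pair the samples. With the replicate number as a block over the 8 numbered libraries, 2325 genes were lower and 2326 higher, and 8 receptor genes remained lower. Without the unnumbered libraries, and with no block, 2307 were lower and 2264 higher. Depth limits Clec4g most, with 9 to 14 counts per Mttp_KO_CM library.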
